A study of Mus musculus with 6 samples.

Results

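The AP-1 family is a set of transcription factors that bind DNA as pairs joined by a leucine zipper. The 8 family genes described here are the Fos genes Fos, Fosb, Fosl1 and Fosl2, the Jun genes Jun, Junb and Jund, and Atf3. They were taken by gene symbol from a table of 54309 mouse genes, and the table lists 24 of their transcripts among 140789. Messenger RNA was measured in 6 RNA-seq libraries of neuron-enriched cells from lumbar dorsal root ganglia (DRG, the sensory ganglia beside the spinal cord) of levels 4 to 6. All animals were male C57bl/6 mice of 8 to 10 weeks. Each had received an adeno-associated virus (AAV) in both sciatic nerves, then, after 4 weeks, a dorsal column axotomy, a cut of the central sensory axon branch in the spinal cord, and the ganglia were taken 24 hours later. The virus carried GFP alone (AAV-GFP, 3 libraries) or leptin and GFP (AAV-Leptin-GFP, 3 libraries). Leptin is an adipose hormone that signals through its receptor to the JAK-STAT pathway. Injury, virus, GFP and the enzymatic dissociation were thus shared by both groups, and the comparison asks what added leptin did to expression. Neither the promoter in the virus nor whether a library pooled animals is given in the sources used here. The p-values therefore speak only of the spread among these 6 libraries, which may in part be technical.

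Jun proteins can pair with each other or with Fos proteins, Fos proteins need a Jun partner, and the pairs bind the sequence TGACTCA, called the AP-1 site. Several members, among them Fos, Fosb, Junb and Jun, are immediate early genes. Transcription of such genes starts within minutes of a stimulus, and their short-lived mRNA decays soon after it ends. Jun and Atf3 are known for their induction in sensory neurons whose peripheral axon has been cut, where they take part in the programme of axon regrowth. Fosb also makes a shortened protein, delta-FosB, that lacks the end of the full-length protein and is known for its long life in neurons.

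Values are TPM, a transcript's share of a library corrected for its length, and were summed per gene. Lep, the delivered gene, was at 0 in every AAV-GFP library and reached 0.751, 0.547 and 3.56 TPM in replicates 1, 2 and 3 of AAV-Leptin-GFP. Read depth is unknown. The 8 marker lists (sensory neurons, satellite glia, Schwann cells, macrophages, fibroblasts, endothelial and mural cells, neutrophils and T cells, erythroid cells) had no gene at 0 in all libraries, so markers of cells other than neurons were detected too. Sensory neuron markers summed to 29186 to 30434 TPM with AAV-GFP and 27929 to 28588 TPM with AAV-Leptin-GFP, satellite glia markers to 9795 to 10985 and 8807 to 9576 TPM, and Schwann cell markers to 1765 to 1829 and 1562 to 1699 TPM. Apoe alone gave 7164 ± 464 and 6229 ± 284 TPM (mean ± SD, n = 3) of the satellite glia sums, which thus rest largely on 1 gene. In these bulk samples, fewer cells of a type and less RNA per cell cannot be told apart. Transcripts annotated as retaining an intron took 2.10% to 2.50% of all TPM with AAV-GFP and 3.24% to 3.75% with AAV-Leptin-GFP, and mitochondrially encoded genes 5.66% to 6.13% and 7.35% to 9.15%. These shares moved with the group in the same libraries as the AP-1 values below. Results with coding transcripts only and without mitochondrially encoded genes are given in the last section. Whether what moved the shares also moved the AP-1 values was not tested.

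The promoters of 5 members are shown because 3 of these genes rose and 2 did not pass the test. The RefSeq windows (build GRCm38.p6) run from 250 bases before to 50 bases after the start site and were found for 7 of the 8 members. Capitals mark matches on either strand to TGACG, the shared first part of the cyclic AMP response element, or to TGACATCA, a variant of the AP-1 site.
Fos (chr12:85473640-85473939, plus strand): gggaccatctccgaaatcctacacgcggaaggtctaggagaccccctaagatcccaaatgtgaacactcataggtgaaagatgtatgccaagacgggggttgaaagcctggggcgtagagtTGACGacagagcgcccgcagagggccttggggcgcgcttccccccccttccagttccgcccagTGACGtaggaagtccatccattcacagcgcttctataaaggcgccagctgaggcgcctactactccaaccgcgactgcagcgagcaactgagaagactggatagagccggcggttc
Fosb (chr7:19309996-19310295, minus strand): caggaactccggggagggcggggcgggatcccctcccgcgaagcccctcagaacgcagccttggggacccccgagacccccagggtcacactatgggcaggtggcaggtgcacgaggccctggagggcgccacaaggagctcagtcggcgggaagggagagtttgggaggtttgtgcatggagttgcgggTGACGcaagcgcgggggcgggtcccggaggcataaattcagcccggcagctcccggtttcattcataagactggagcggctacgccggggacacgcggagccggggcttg
Junb (chr8:84978699-84978998, minus strand): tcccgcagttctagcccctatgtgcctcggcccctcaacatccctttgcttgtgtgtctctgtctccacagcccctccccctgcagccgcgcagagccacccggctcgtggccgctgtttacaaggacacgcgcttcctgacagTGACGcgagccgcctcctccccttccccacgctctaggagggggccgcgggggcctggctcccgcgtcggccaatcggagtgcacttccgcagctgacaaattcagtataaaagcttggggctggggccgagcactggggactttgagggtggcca
Jun (chr4:95052173-95052472, minus strand): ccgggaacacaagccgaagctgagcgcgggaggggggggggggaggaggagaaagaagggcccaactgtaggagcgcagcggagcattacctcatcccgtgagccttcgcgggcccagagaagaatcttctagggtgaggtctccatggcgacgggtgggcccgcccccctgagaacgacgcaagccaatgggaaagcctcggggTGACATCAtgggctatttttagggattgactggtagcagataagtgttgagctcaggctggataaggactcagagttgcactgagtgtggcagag
Atf3 (chr1:191183284-191183583, minus strand): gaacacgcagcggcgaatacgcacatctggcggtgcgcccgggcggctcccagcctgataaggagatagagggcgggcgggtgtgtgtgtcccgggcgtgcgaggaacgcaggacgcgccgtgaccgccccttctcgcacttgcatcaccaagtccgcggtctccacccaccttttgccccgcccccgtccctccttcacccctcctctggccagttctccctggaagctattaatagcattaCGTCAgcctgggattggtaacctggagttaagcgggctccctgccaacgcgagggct
Fos had TGACG at -129 and -66, Fosb at -60 and Junb at -106, and Atf3 had its reverse complement at -7, all counted to the first base of the match from the start site. TGACG occurs in 20.8% of 32851 promoter windows of the same length. Jun had no TGACG but TGACATCA at -45, which 3.62% of windows hold. The full element TGACGTCA, which contains TGACG (in 1.79% of windows), the AP-1 site TGACTCA (5.20%), the STAT-type sequence TTCNNNGAA (8.30%) and the CArG box bound by serum response factor (1.63%) had no match in the windows of the 7 members. Bases more than 250 before the start site were not searched, so these absences do not show that a gene lacks such sites. The RefSeq windows of Fosl2, Jund and Atf3 lie at other start sites than the gene starts given below. They say nothing of the bases around those gene starts. The Fosl2 and Jund windows held no match to the motifs searched. In Junb and Fosb the RefSeq start site, from which distances were counted, lies near the gene start given below but not at it. TATAAA, not capitalised here, lay at -33 in Fos and at 1 in Junb (13.6% of windows). A match is a description of these letters, and binding was not measured.

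Fos, Fosb and Junb rose with leptin, and no member fell. Of the 8 members 7 reached the minimum mean of 1 TPM and were tested with limma over 15108 genes, and 3 were called higher at an adjusted p under 0.05, where 1.54% of all tested genes were higher and 0.0662% lower. The 4 other tested members, Fosl2, Jun, Jund and Atf3, did not pass. The median log2 fold change of the 7 was 0.51, against -0.00016 over all tested genes, and all 7 were above 0, as were 49.9% of tested genes. The groups did not overlap for 5 of the 7, all with leptin higher, a pattern found in 13.3% of tested genes.

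Fosb (ENSMUSG00000003545, chromosome 7, 19302696 to 19310051, minus strand, GRCm38) stood at 13.5, 11.4 and 9.24 TPM in AAV-GFP replicates 1, 2 and 3. In replicates 1, 2 and 3 of AAV-Leptin-GFP it reached 59.1, 91.3 and 56.2 TPM. Every leptin library lay above every AAV-GFP library, and leptin replicate 2 was the highest. On the log2(TPM + 1) scale the difference was 2.48 (SE 0.20, 95% interval 2.005 to 2.95, limma adjusted p = 0.00835), the 7th smallest p of all tested genes. Fosb moved from the 41.3rd to the 81.5th percentile of gene levels in TPM.

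Fos (ENSMUSG00000021250, chromosome 12, 85473890 to 85477273, plus strand), the founding Fos gene, stood at 139, 132 and 128 TPM with AAV-GFP and at 324, 437 and 301 TPM with AAV-Leptin-GFP. Again the groups were apart and leptin replicate 2 was the highest. The log2 fold change was 1.39 (SE 0.13, 95% interval 1.09 to 1.69, limma adjusted p = 0.0143), the 10th smallest p. The AAV-GFP libraries lay close together, with a coefficient of variation of 4.25%, and the leptin libraries spread more, at 20.5%.

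The third called member, Junb (ENSMUSG00000052837, chromosome 8, 84974484 to 84978718, minus strand), stood at 85.7, 82.1 and 73.3 TPM with AAV-GFP and at 131, 149 and 117 TPM with leptin. JUNB can pair with FOS proteins and is known as a weaker activator than JUN. Its groups did not overlap, leptin replicate 2 was once more the highest, and the log2 fold change was 0.71 (SE 0.10, 95% interval 0.48 to 0.94, limma adjusted p = 0.0268). Of the leptin libraries, replicate 2 had the lowest Lep, at 0.547 TPM. Replicate 3 had the highest Lep, at 3.56 TPM, and the lowest Fos, Fosb and Junb. The relation of Lep level to these genes was not tested.

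Fosl2 (ENSMUSG00000029135, chromosome 5, 32135801 to 32157842, plus strand), a Fos relative without the strong activation domain of FOS, stood at 4.96, 4.57 and 4.11 TPM with AAV-GFP and at 7.19, 6.49 and 6.99 TPM with leptin. The groups did not overlap, but the log2 fold change of 0.51 (SE 0.10, 95% interval 0.27 to 0.75) did not pass over all genes (limma adjusted p = 0.0625). Without mitochondrially encoded genes in the TPM total it did, at 0.55 (limma adjusted p = 0.0494). Fosl1 (ENSMUSG00000024912, chromosome 19, 5447547 to 5455946, plus strand) was at 0.220, 1.31 and 0.111 TPM and at 0.321, 0.236 and 1.02 TPM, under the minimum, with groups that overlapped throughout. In AAV-GFP replicate 2 its retained-intron transcript held 68.8% of these values, and in leptin replicate 3 it held 47.8%.

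Jun (ENSMUSG00000052684, chromosome 4, 95049034 to 95052222, minus strand), the main partner of FOS and a target of the kinase JNK, stood at 213.4, 205.8 and 195.0 TPM with AAV-GFP and at 259, 229 and 230 TPM with leptin. Its groups did not overlap, yet the difference was small, at 0.22 (SE 0.06, 95% interval 0.08 to 0.37), and did not pass (limma adjusted p = 0.112). Jund (ENSMUSG00000071076, chromosome 8, 70698949 to 70700616, plus strand), the Jun gene that most cells express steadily, stood at 241, 237 and 230 TPM and at 264, 239 and 219 TPM. Its groups overlapped, and the interval of its log2 fold change ran from -0.13 to 0.18 around 0.02 (limma adjusted p = 0.893).

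Atf3 (ENSMUSG00000026628, chromosome 1, 191170296 to 191218039, minus strand), a marker of injured sensory neurons, stood at 51.2, 34.6 and 37.4 TPM with AAV-GFP and at 65.8, 36.6 and 38.1 TPM with leptin. Replicate 1 was the high library in each group and the groups overlapped. Of the 7 tested members it had the widest 95% interval, -0.41 to 0.71 around a log2 fold change of 0.15 (limma adjusted p = 0.778). Without leptin replicate 1 its value was -0.11.

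**Figure D1:**
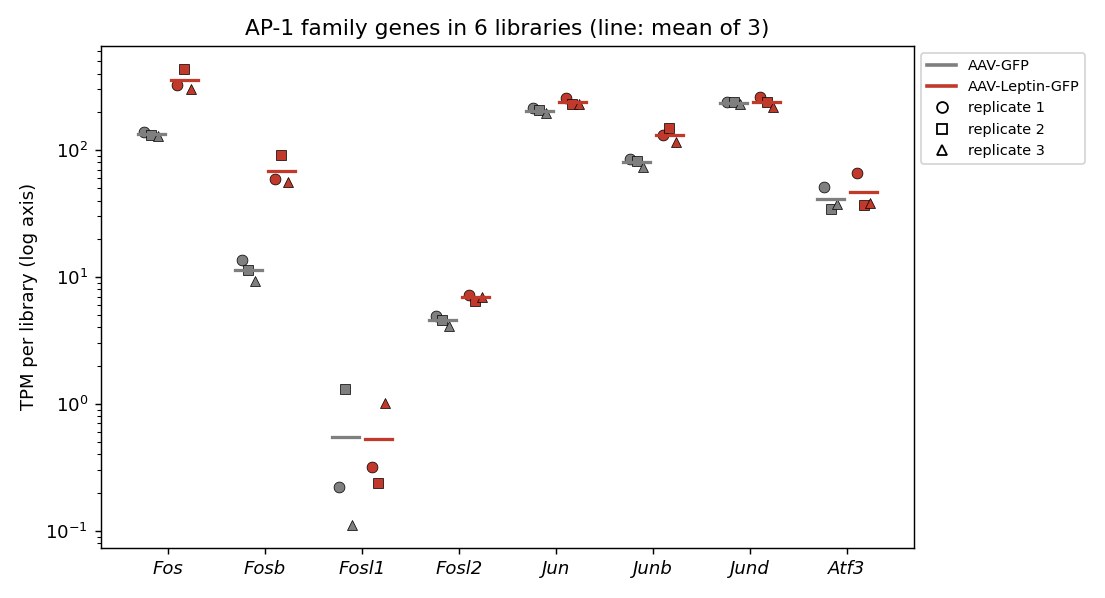
TPM of the 8 AP-1 genes in each library on a log axis, grey for AAV-GFP and red for AAV-Leptin-GFP, with the mean of 3 as a line. The groups lie apart for Fos, Fosb, Fosl2, Jun and Junb and overlap for Fosl1, Jund and Atf3.

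**Figure D2:**
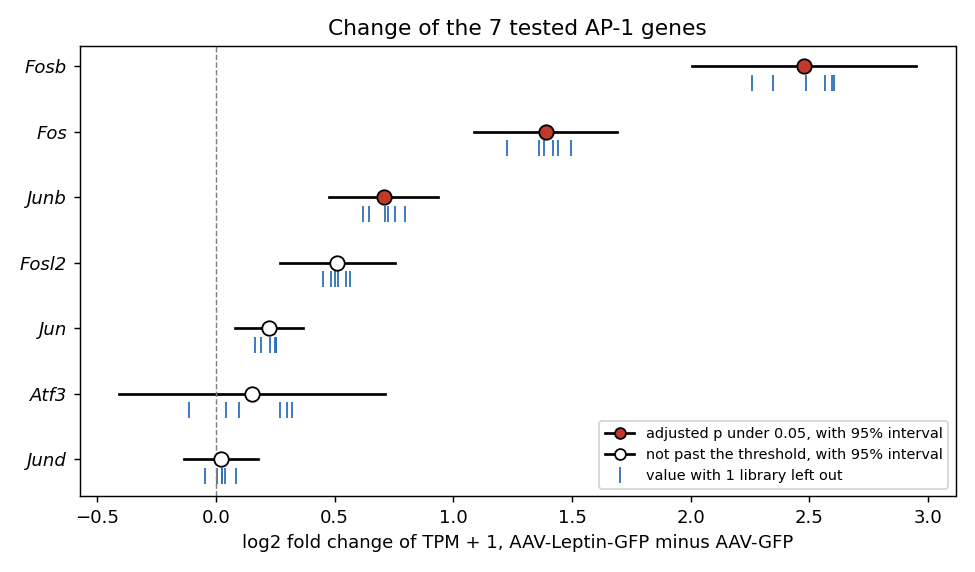
Log2 fold change of TPM + 1 (AAV-Leptin-GFP minus AAV-GFP) of the 7 tested members with limma's 95% interval, and in blue the value with each library left out in turn. Values run from 2.48 for Fosb to 0.02 for Jund, and leaving out AAV-Leptin-GFP replicate 1 takes Atf3 and Jund below 0.

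The calls of Fos, Fosb and Junb depended on which libraries were kept, while the sizes of their differences moved less. Fos and Fosb kept an adjusted p under 0.05 without AAV-GFP replicate 1 and without leptin replicate 2 or 3, and lost it without AAV-GFP replicate 2 (limma adjusted p = 0.0861 and 0.0839), AAV-GFP replicate 3 (0.1003 and 0.0779) or leptin replicate 1 (0.0692 and 0.0501). Junb passed without AAV-GFP replicate 1 and in no other of these fits. Over all genes the number called higher moved as well, from 233 to 409, 3 and 4 without AAV-GFP replicates 1, 2 and 3 and to 10, 18 and 15 without leptin replicates 1, 2 and 3. The log2 fold change stayed between 2.26 and 2.60 for Fosb, 1.23 and 1.496 for Fos and 0.62 and 0.80 for Junb, and in every such fit 5 members had an unadjusted p under 0.05 with leptin higher. Over all libraries 11.3% of tested genes did so with leptin higher and 8.19% with leptin lower. With no minimum level, which brought 29036 genes into the test, no member was called (limma adjusted p = 0.0661 for Fos, 0.0502 for Fosb and 0.0824 for Junb).

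Fos and Fosb made up more of the AP-1 mRNA in each leptin library, and Jun and Jund less. With AAV-GFP the order of levels was Jund, Jun, Fos, Junb, Atf3, Fosb, Fosl2 and Fosl1, with no overlap between neighbours in that order. With leptin Fos was first, Jund and Jun overlapped in the next places, Junb followed, Fosb and Atf3 overlapped, and Fosl2 and Fosl1 were again last. Fos genes together summed to 158, 149 and 141 TPM with AAV-GFP and to 391, 535 and 366 TPM with leptin. Jun genes summed to 540, 525 and 499 TPM and to 654, 617 and 566 TPM. Fos gene mRNA thus amounted to 0.287 ± 0.00481 (SD, n = 3) of Jun gene mRNA with AAV-GFP and 0.704 ± 0.144 with leptin. As a share of the 8 members, Fos genes took 20.99% ± 0.115 and 39.3% ± 5.10, Jun genes 73.3% ± 1.03 and 56.4% ± 3.88, and Atf3 5.75% ± 0.999 and 4.31% ± 1.46. Leptin replicate 2 had the largest Fos share, at 45.02%. These sums are descriptions of chosen members and have no test.

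**Figure D3:**
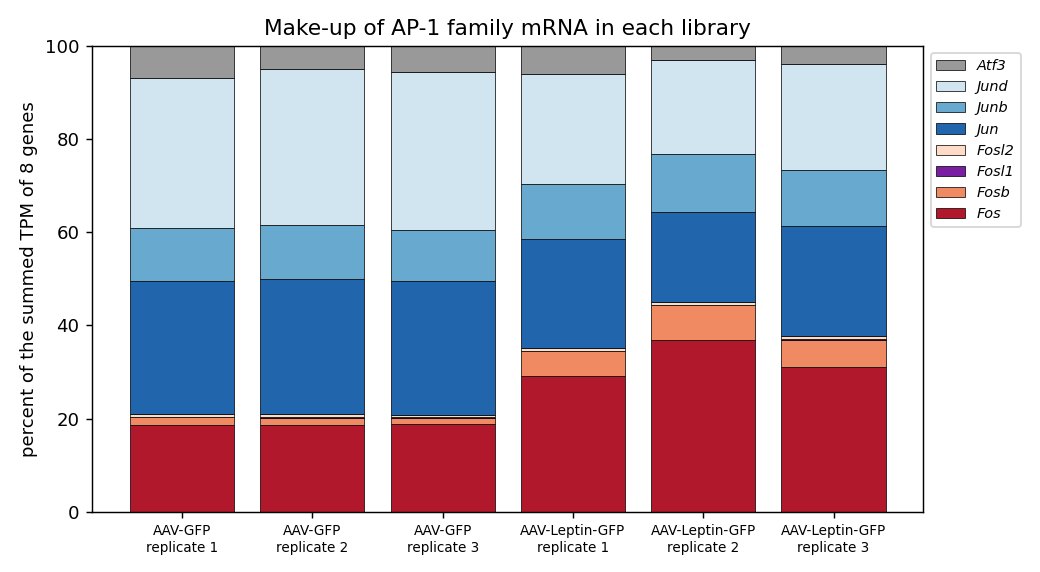
Each bar is 1 library and shows the percent of the summed TPM of the 8 AP-1 genes that each gene takes. The Fos genes (red tones and purple) fill 20.9% to 21.1% of the AAV-GFP bars and 35.2% to 45.02% of the AAV-Leptin-GFP bars.

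Ratios between members within a library do not depend on the TPM total, and 5 were compared. Fosb per Fos was 0.0971, 0.0863 and 0.0723 with AAV-GFP and 0.182, 0.209 and 0.187 with leptin, a 2.27-fold difference, so Fosb was higher relative to Fos in each leptin library. Fos per Jun was 0.651, 0.642 and 0.655 against 1.25, 1.91 and 1.31, and here too the groups were apart. Fosb per Fosl2 differed 3.93-fold and Junb per Jun 1.41-fold, again with no overlap. For each of these 4 ratios the exact two-sided permutation p was 0.1, the smallest that 3 against 3 libraries allow (0.125 adjusted over the 5). Atf3 per Jun was 0.240, 0.168 and 0.192 against 0.254, 0.160 and 0.166, which overlapped (exact permutation p = 0.8).

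Transcripts of Fos and Fosb that hold intron sequence lay higher in every leptin library, just short of the test's threshold. Of the 24 member transcripts 19 were above 0 in some library and 11 reached a mean of 1 TPM and were tested with limma over 33615 transcripts. The main coding transcripts Fos-201 (log2 fold change 1.32, SE 0.13, limma adjusted p = 0.0370) and Fosb-201 (2.32, SE 0.17, adjusted p = 0.0279) rose, and 9 did not pass, in a test that called 0.107% of transcripts higher and 0.0238% lower. Only 1 of them was called with a pseudocount of 0.1, and neither with a minimum of 5 TPM, with no minimum, with the replicate block, or without AAV-GFP replicate 2, AAV-GFP replicate 3, AAV-Leptin-GFP replicate 1 or AAV-Leptin-GFP replicate 3. The groups did not overlap for 8 of the 11, leptin being higher, as for 15.0% of all tested transcripts. The main coding transcripts of Junb (0.71, limma adjusted p = 0.0548), Fosl2 (0.47, adjusted p = 0.111) and Jun (0.22, adjusted p = 0.127) carried nearly all of their genes' TPM and gave values like those of the genes.

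Fosb-204 is a single-exon transcript that holds 2461 bases of Fosb introns. It stood at 4.10, 2.44 and 1.52 TPM with AAV-GFP and at 17.1, 28.7 and 15.2 TPM with leptin (log2 fold change 2.54, SE 0.33, limma adjusted p = 0.0504). All leptin libraries were above all AAV-GFP libraries, and the value is close to that of the spliced Fosb-201. Its share of Fosb was 30.4%, 21.4% and 16.4% against 29.0%, 31.4% and 27.1%, which overlapped (exact permutation p = 0.3). Fos-203, which begins in intron 1 of Fos and carries 244 of its bases, stood at 4.597, 2.62 and 4.51 TPM and at 21.9, 37.9 and 19.5 TPM (2.45, SE 0.29, limma adjusted p = 0.0504). Its share of Fos was 3.31%, 1.98% and 3.53% with AAV-GFP and 6.74%, 8.67% and 6.49% with leptin, apart in all libraries (exact permutation p = 0.1, the smallest possible, 0.4 adjusted over 8 shares). Fosb-204 is annotated as a retained-intron transcript, and of 4245 tested transcripts of that class 51.3% had groups that did not overlap with leptin higher, with a median log2 fold change of 0.88. Fos-203 is annotated as a processed transcript and is not in that class. Jun-201, Junb-201 and Jund-201 have 1 exon each, so they offer no such reading.

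The shortened Fosb form is made by removing 140 coding bases (chromosome 7, 19305007 to 19305146, GRCm38) from the last exon, which shifts the reading frame. The transcript sequence around this segment, from GENCODE M21, is shown because the form's measure rests on it. Capitals mark the removed bases, which begin with GT and end with AG as introns do, and 20 bases are given on each side.
Fosb removed segment (chr7:19304987-19305166, minus strand): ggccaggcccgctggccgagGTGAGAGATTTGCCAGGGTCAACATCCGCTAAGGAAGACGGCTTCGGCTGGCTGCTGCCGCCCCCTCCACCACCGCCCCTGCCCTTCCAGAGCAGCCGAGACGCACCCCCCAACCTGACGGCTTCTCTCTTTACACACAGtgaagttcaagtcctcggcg
Fosb-206, annotated with 237 codons against 338 in Fosb-201, and Fosb-207, which also lacks an exon of 108 bases, have this junction. Fosb-206 stood at 1.13, 1.74 and 0.307 TPM with AAV-GFP and at 3.30, 5.22 and 3.74 TPM with leptin (log2 fold change 1.35, SE 0.32, limma adjusted p = 0.0927). Fosb-207 was listed at 0 in the AAV-GFP libraries and at 1.40, 2.84 and 1.69 TPM with leptin, with a mean under the minimum for testing. The groups were apart for both transcripts, and their sum was 1.13, 1.74 and 0.307 TPM against 4.70, 8.06 and 5.43 TPM. As a share of spliced Fosb, a measure chosen after the values were seen, the junction took 11.97%, 19.4% and 3.98% against 11.2%, 12.9% and 13.2% (exact permutation p = 0.8). The level of this form was thus higher in each leptin library, while its share spread widely among the AAV-GFP libraries, and the direction of the share's difference turned without AAV-GFP replicate 3.

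Atf3 has a pair of coding transcripts that differ in their first exon. The nearer start, at the promoter shown above, gave 39.6, 32.4 and 32.2 TPM with AAV-GFP and 61.9, 33.7 and 37.1 TPM with leptin. The start farther upstream gave 11.6, 2.24 and 5.23 TPM and 3.86, 2.87 and 1.054 TPM. Their log2 fold changes were 0.30 (limma adjusted p = 0.583) and -0.91 (adjusted p = 0.464), so neither passed. The share of the upstream form was 14.4% ± 8.07 and 5.50% ± 2.56 (exact permutation p = 0.2), and AAV-GFP replicate 1 was the high library at 22.6%.

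**Figure D4:**
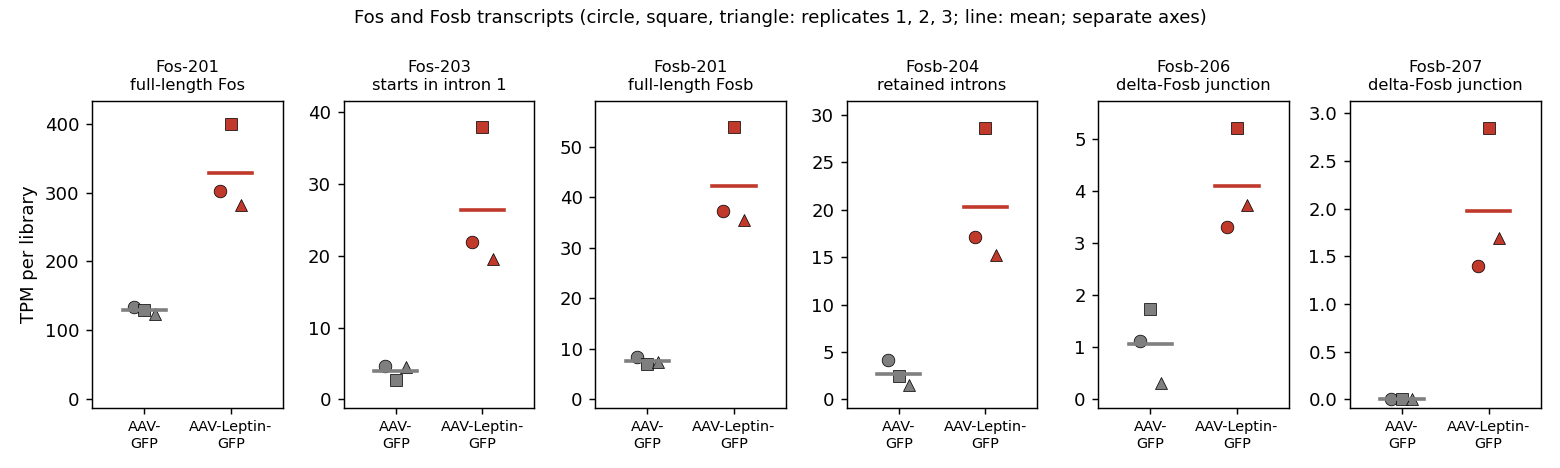
TPM in each library of 6 Fos and Fosb transcripts, each on its own linear axis, with the group mean as a line. In each panel the AAV-Leptin-GFP libraries lie above the AAV-GFP libraries and replicate 2 (square) is the highest leptin library.

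Among the lists of related genes, most calls fell on other immediate early genes and on the dissociation list that overlaps them. Counts below leave out the 8 members, and each list's share can be read against the 1.54% of tested genes called higher and 0.0662% called lower. Of 34 tested other immediate early genes 14 rose and none fell, with a median log2 fold change of 0.48. The rule for named genes gave Klf4 (from 2.73 ± 0.263 to 8.91 ± 0.355 TPM), Nr4a2 (from 1.85 ± 0.123 to 5.63 ± 0.0781 TPM), Ier2 and Btg2. Proteins that control the life of AP-1 mRNA gave 3 of 21 higher and 0 lower (median 0.08). Zfp36, whose protein binds AU-rich elements and speeds the decay of such mRNA, rose from 27.9, 27.2 and 28.9 TPM to 82.9, 131.7 and 70.9 TPM, by 1.68 on the log2 scale (SE 0.20, limma adjusted p = 0.0203). The related gene Zfp36l1 (0.63, adjusted p = 0.0203) and Btg2, which recruits the deadenylase complex (1.31, adjusted p = 0.0155), rose as well. Leptin replicate 2 was the highest library for all 3 of these genes, as for Fos, Fosb and Junb.

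Among 24 other proteins with a basic leucine zipper 1 rose and none fell (median 0.11). It was Cebpd, from 9.48 ± 0.943 to 14.7 ± 1.26 TPM (0.59, SE 0.10, limma adjusted p = 0.0409), which takes part in cytokine responses. None of 30 genes of the JNK, ERK and p38 pathways, which are kinases and the JNK scaffold genes Mapk8ip1, Mapk8ip2 and Mapk8ip3, was called by limma (3 higher and 1 lower at an unadjusted p under 0.05, median 0.05), and the smallest p was that of Map2k3, a kinase upstream of p38, at 0.42 (limma adjusted p = 0.0583). Nor was any of 21 regulators of the Fos and Jun promoters (4 higher and 1 lower at an unadjusted p under 0.05, median 0.15), with the smallest p for the CREB coactivator Crtc2 at 0.35 (adjusted p = 0.0899). Genes known as AP-1 targets in nerve injury and other settings gave 1 of 39 higher and 0 lower (median -0.08, 14 above 0). It was the MAP kinase phosphatase Dusp1, at 36.9 ± 2.87 and 60.4 ± 5.83 TPM (0.69, adjusted p = 0.0229), itself an immediate early gene, while at an unadjusted p under 0.05 the list had 2 higher and 7 lower.

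Genes that cell dissociation is known to induce were partly the same genes. Of 38 tested 12 rose and none fell (median 0.25), and 9 of the 12 are also in the immediate early list. The other 3 were Socs3 (from 48.0 ± 3.38 to 114 ± 15.1 TPM), the feedback inhibitor of JAK-STAT signalling, Nfkbiz and Cebpd. The 13 heat shock genes of this list, a subset chosen after the values were seen, gave 0 calls by limma (3 at an unadjusted p under 0.05) and a median of -0.02, with values from -0.15 to 0.58. They went both ways: of those 3, the inducible Hspa1a (0.58, limma adjusted p = 0.123) and Dnajb1 (0.29, adjusted p = 0.108) were higher with leptin and Hspe1 (-0.15, adjusted p = 0.0985) lower. Both groups were dissociated in the same way per the labels, and the part of dissociation in the AP-1 values was not tested.

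**Figure D5:**
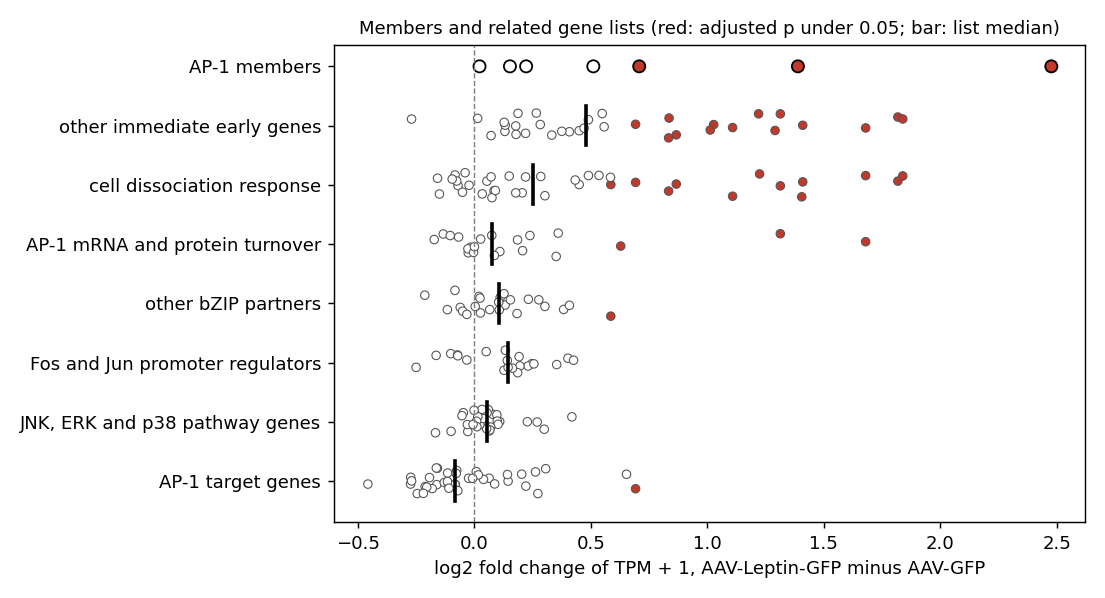
Log2 fold change of each tested gene in the AP-1 family and 7 related lists, red where the limma adjusted p is under 0.05, with a bar at each list's median (dots are spread vertically at random). Called genes are frequent among other immediate early genes (14 of 34) and absent from the JNK, ERK and p38 pathway list and the promoter regulators.

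Among the genes of the 8 marker lists 1 was called, Egr2 of the Schwann cell list (from 4.71 ± 0.531 to 13.0 ± 2.04 TPM), which is an immediate early gene as well. The gene with the smallest p was Calca at -0.36 (limma adjusted p = 0.0603) for sensory neurons, Fabp7 at -0.53 (0.106) for satellite glia, Ctss at -0.42 (0.374) for macrophages, Mfap5 at -0.61 (0.262) for fibroblasts, Egfl7 at -0.22 (0.112) for endothelial and mural cells, S100a8 at 0.35 (0.683) for neutrophils and T cells, and Hbb-bt at 1.59 (0.179) for erythroid cells. The satellite glia list went both ways, and Lgi4 was higher at 0.49 with nearly the same p as Fabp7 (limma adjusted p = 0.106). Of its 15 tested genes 4 had a log2 fold change above 0, and at an unadjusted p under 0.05 it had 2 higher and 4 lower. Summed macrophage markers overlapped between the groups (100.2 to 134.6 and 106.6 to 115.7 TPM), as did those of fibroblasts, of endothelial and mural cells, of neutrophils and T cells and of erythroid cells (205.4 to 296.5 and 274.6 to 1761 TPM).

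The genes whose pattern was most like a member's were found by the root mean square difference, over the 6 libraries, of log2(TPM + 1) after subtracting each gene's AAV-GFP mean. For Fos they were Tia1 (difference 0.12, from 9.74 ± 1.40 to 27.7 ± 4.94 TPM), Pla2g4b (0.13) and Socs3 (0.13). Pla2g4b was near the floor, at 0.240 ± 0.192 and 2.09 ± 0.652 TPM, where adding 1 to the TPM shrinks the difference. For Fosb the distances were larger, with SNORA2C (0.26, listed at 0 in each AAV-GFP library), Gm26532 (0.34) and Gm12940 (0.36). For Junb they were Akap8 (0.06, from 31.9 ± 1.97 to 50.2 ± 6.10 TPM), Atad3a (0.06) and Guf1 (0.07). For Atf3 they were 1810014B01Rik (0.07), Fancm (0.09) and Irf9 (0.10), each with its highest value in replicate 1 of both groups. The measure describes likeness over 6 libraries and has no test.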

How the data were processed

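The authors deposited TPM values per Ensembl transcript, with 6 value columns that were matched to the samples by their titles. The submitters' processing notes name Salmon 1.6.0, Trim Galore 0.6.6, FastQC 0.11.9 and DESeq2 1.34.0 without their roles, and the builds mm10 and GRCm38. Their annotation release was not given in the sources used here. TPM keeps no read number, so the depth per library and counting intervals are unknown, and because TPM is a share of a fixed total, abundant transcripts that rise lower the rest. Salmon divides reads between overlapping transcripts, so levels of isoforms of 1 gene are estimates.

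TPM were summed by gene identifier. Genes whose 6 libraries averaged 1 TPM or more entered the test on log2(TPM + 1), which understates changes of low genes, with limma 3.58.1 in R 4.3.3 (mean-variance trend, no covariates, two-sided). A call is a Benjamini-Hochberg adjusted p under 0.05 over all tested genes. The same fit was made per transcript. Single values were compared with exact permutation tests in scipy 1.17.1. Files were read with data.table (version 1.17.8). Other steps used Python 3.11.15, pandas 2.3.3, numpy 2.4.6 and matplotlib 3.10.9, and the fit was checked on simulated data. Transcript classes, exons and loci came from GENCODE M21 (GRCm38), which holds 97.4% of the transcript identifiers. The members and 15 gene lists were chosen with earlier results of these data known. Named genes were the 8 members, their transcripts with a mean of at least 1 TPM, up to 4 called genes with the smallest p per list (else the 1 with the smallest p), and for 4 members the 3 genes most alike. The alternatives were a pseudocount of 0.1, no minimum or 5 TPM, quantile or median-of-ratios scaling, coding transcripts only, no mitochondrial genes, no trend, a replicate block and each library left out. No 2 libraries were identical. No batch is given in the labels.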

Additional observations from a re-analysis of the deposited data

How the results depend on the processing

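Fos, Fosb and Junb were the 3 members called higher, and no member was called lower under any of 15 alternatives. The number called higher was 0 with no minimum level (limma adjusted p = 0.0661, 0.0502 and 0.0824), and ranged from 0 to 3 with 1 library left out. Junb alone lost its call without the mean-variance trend (limma adjusted p = 0.0621). Fos, Fosb and Junb kept their calls with coding transcripts only, at log2 fold changes of 1.36, 2.38 and 0.75. They also kept them without mitochondrially encoded genes, at 1.42, 2.52 and 0.74, where Fosl2 was called too. Over all genes the number called higher was 4 with no minimum level, 35 without the trend, 88 with coding transcripts only and 74 with the replicate block, against 233. Of the member transcripts 2 were called higher; this was 0 with no minimum level, 0 with a minimum of 5 TPM, 1 with a pseudocount of 0.1, 0 with the replicate block, and 0 to 5 with 1 library left out. The log2 fold changes of Jund and Atf3 turned to -0.045 and -0.11 without AAV-Leptin-GFP replicate 1, with ranges of -0.045 to 0.087 and -0.11 to 0.32 over the libraries left out. The log2 ratio of Atf3 to Jun differed by -0.067 over all libraries (-0.28 to 0.072 with 1 left out) and by 0.072, 0.053 and 0.026 without AAV-GFP replicate 1, AAV-Leptin-GFP replicate 2 and AAV-Leptin-GFP replicate 3. The share of Fosb-201 differed by 0.539 percentage points without AAV-GFP replicate 3 (-5.30 over all, -8.23 to 0.539 with 1 left out), that of Fosb-206 by 0.155 without AAV-GFP replicate 2 (-2.99 over all, -5.82 to 0.155), and that of the delta-FosB junction by -3.27 without AAV-GFP replicate 3 (0.64 over all, -3.27 to 4.46). The cause was not tested in any of these. Same-numbered libraries did not deviate together across all genes (correlations 0.03, -0.07 and -0.02). This cannot decide whether the numbers pair them, because a deviation shared by few genes would hardly move such a correlation. With the replicate block 3 members were still called higher, and the SE of Atf3 was 0.081 against 0.239 without it (limma adjusted p = 0.372 and 0.778). TPM gives no depth, so limits from read number cannot be stated.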
